A study of Homo sapiens with 43 samples.

Results

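LIN28 and FMR1 are RNA-binding proteins that both bind messenger RNA. The regions described here were those at which peaks had been called for both proteins and for none of the other RNA-binding proteins profiled. They were chosen by the presence and absence of called peaks. A region is a row of the LIN28 wt-eCLIP peak list that overlapped by at least 1 nt, on the same strand, a row of LIN28 V5-eCLIP, of FMR1 wt-eCLIP and of FMR1 FLAG-eCLIP. It overlapped no row of the 7 lists of HNRNPC, RBFOX2 and DGCR8, and rows on the mitochondrial chromosome were left out. This gave 1963 regions among the 42551 rows of the LIN28 wt-eCLIP list. The word "only" refers to these RBPs, since 1709 of the 1963 regions also overlapped a peak of a library that names a tag and no RBP.

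All libraries came from HEK293T, a human embryonic kidney line, by eCLIP, in which proteins are crosslinked to RNA with ultraviolet light, immunoprecipitated and cut from a gel with the RNA they hold. LIN28 wt and FMR1 wt used antibodies against the proteins in wild-type cells, and HNRNPC wt, RBFOX2 wt and DGCR8 wt likewise. LIN28 V5, FMR1 FLAG, RBFOX2 V5, DGCR8 FLAG and HNRNPC V5 isoforms 1 and 2 used antibodies against the tag in lines with the tag integrated at the endogenous gene. The FLAG-only and V5-only libraries, 7 of each, were cut from gel ranges of 75 kDa. The labels state neither which LIN28 paralog was profiled, nor whether a tagged line was 1 clone, nor whether the tag-only cells carried a tag. There was a single library for every RBP and tag state (n = 1), so the differences below have no replicate check and no p-value. Intervals are 95% Wilson intervals, which cover counting error over regions only.

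LIN28 holds a cold-shock domain and zinc knuckles. It blocks the maturation of let-7 microRNA precursors in stem cells and early development, and it also binds many messenger RNAs. FMR1 encodes FMRP, a protein with KH domains and an RGG box that travels with polyribosomes, restrains translation of its target mRNAs and is lost in fragile X syndrome. HNRNPC and RBFOX2 act on nascent transcripts in the nucleus, and DGCR8 acts there on primary microRNAs. Positions are in the human build hg19 and are 1-based. No hg19 annotation or sequence was used here, so regions are given by position, without a gene name, a motif or a place in an exon or intron.

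Most regions shared by the LIN28 and FMR1 lists were called for at least 1 other RBP as well. Of the rows of LIN28 wt, 20938 overlapped LIN28 V5, 13390 overlapped FMR1 wt and 17887 overlapped FMR1 FLAG, and 7756 overlapped all 3. The 1963 regions were what remained of these 7756 once 5793 rows with a peak of another RBP had been removed. RBFOX2 lists overlapped 4598 of the 7756 rows and DGCR8 lists 4419, whereas HNRNPC lists overlapped 1992. RBFOX2 alone removed 973 rows, DGCR8 alone 920 and HNRNPC alone 155. The lists differ in length, so these numbers do not rank the RBPs. They also count any called peak, however weak. Where only peaks with a log2 fold and a −log10 p of at least 3 removed a row, 7615 of the 7756 rows remained.

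The regions were short and scattered over 22 autosomes and the X chromosome. Their length had a median of 38 nt, with quartiles at 23 and 53 nt and extremes of 1 and 176 nt. The longest was found on chromosome 6 (37321851 to 37322026, plus strand). It had log2 folds of 2.17 in LIN28 wt, 2.54 in LIN28 V5, 2.40 in FMR1 wt and 1.95 in FMR1 FLAG, all under the threshold of 3 used below. The shortest, of 1 nt, were 5 regions on chromosomes 1, 2 and 17. The plus strand held 1017 regions and the minus strand 946. Chromosome 1 held the most, 11.2% of the regions against 10.8% of all LIN28 wt rows, followed by chromosome 17 with 8.97% against 8.20% and chromosome 2 with 8.15% against 6.19%.

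Most regions stood alone along the genome. Joined where they lay within 1000 nt of each other on a strand, the 1963 regions formed 1757 clusters, of which 171 held at least 2 regions and 377 regions in all. The next region of a cluster lay at a median distance of 179 nt, and 20 pairs adjoined each other. Within a cluster neighbouring regions may share a transcript and are not independent.

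How strongly the regions were enriched was examined with the authors' log2 fold of the immunoprecipitation over its input. Where several peaks of a library overlapped a region, the one of highest fold was used. These folds come from the libraries that chose the regions, so they are given as a description. The regions were enriched in each of the 4 libraries, with median log2 folds of 1.59 in LIN28 wt (quartiles 1.00 and 2.38), 2.15 in LIN28 V5 (1.27 and 3.14), 1.81 in FMR1 wt (1.03 and 2.55) and 2.54 in FMR1 FLAG (1.70 and 3.39). The medians over the whole lists were 1.59, 1.51, 1.55 and 2.09 in the same order of libraries. The fold was above the list's own median at 49.6% of the regions in LIN28 wt, 68.8% in LIN28 V5, 57.5% in FMR1 wt and 63.0% in FMR1 FLAG. All LIN28 wt rows that overlapped a peak of the library had medians of 2.10 in LIN28 V5, 1.23 in FMR1 wt and 1.89 in FMR1 FLAG. Of those rows 65.6%, 39.2% and 44.2% were above the list's own median in the same order, so in LIN28 V5 the regions were close to them. Folds lie on steps, so medians can tie, and the LIN28 wt median of 1.59 is a single value held by 154 of the regions and by 3186 of all rows. Negative folds, meaning depletion, were found at between 44 regions in FMR1 FLAG and 72 in FMR1 wt.

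The regions lay between 2 neighbouring classes of LIN28 wt rows in their LIN28 enrichment. The first class comprised 6011 rows shared with LIN28 V5 that had no peak of FMR1 or of the other RBPs. The regions had a median log2 fold of 1.59 in LIN28 wt and 2.15 in LIN28 V5, against 2.17 and 2.67 at those LIN28 rows without FMR1. The second class comprised the 5793 rows in all 4 lists that another RBP shared. There the medians were 1.06 in LIN28 wt, 1.48 in LIN28 V5, 1.03 in FMR1 wt and 1.48 in FMR1 FLAG, each below the median of the regions. Negative folds were held by 48 of the 1963 regions in LIN28 wt, against 952 of these 5793 rows.

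**Figure D1:**
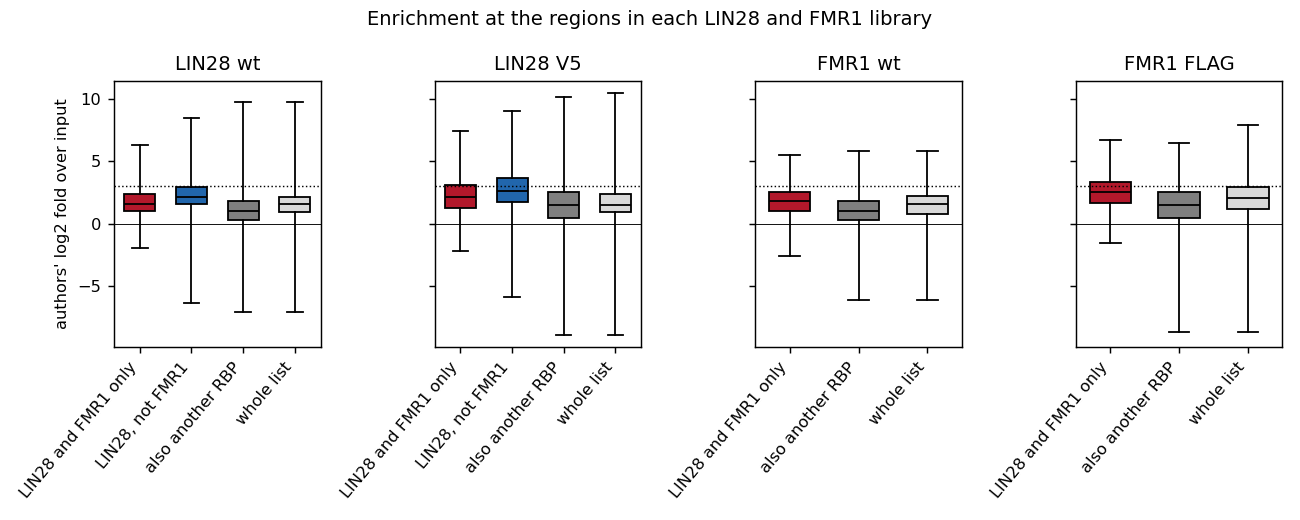
The authors' log2 fold over input (vertical axis) in each of the 4 libraries, as boxes of the quartiles with the median as a line and whiskers from the lowest to the highest value. LIN28 and FMR1 only marks the 1963 regions, LIN28, not FMR1 the 6011 rows without FMR1, also another RBP the 5793 rows in all 4 lists and in another RBP's list, and whole list all rows of that library. The regions sit above the rows shared with another RBP in all 4 libraries and below the rows without FMR1 in both LIN28 libraries, and the dotted line marks a log2 fold of 3.

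A peak was called significant where both its log2 fold and its −log10 p were at least 3, that is 8-fold over input, a threshold usual for the assay and not taken from the labels. In LIN28 wt 154 regions were significant, 7.85% (6.74% to 9.12%), against 4.75% of the whole list. In LIN28 V5 the number was 478 regions, 24.4% (22.5% to 26.3%), against 10.6% of the list. In FMR1 wt it was 210, or 10.7% (9.41% to 12.1%), against 5.25%, and in FMR1 FLAG 679, or 34.6% (32.5% to 36.7%), against 17.2%. Among all LIN28 wt rows that overlapped a peak of the library, the share was 24.5% in LIN28 V5. It was 5.82% in FMR1 wt and 18.7% in FMR1 FLAG. The share of the regions in LIN28 V5 was thus about that of all LIN28 wt rows with a LIN28 V5 peak. Since the rule used the calls of these libraries, and the overlapping peak of highest fold was taken, nothing is read from the difference to the lists.

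About as many regions were significant in none of the 4 libraries as in at least 1. In none were 977 regions, 49.8% (47.6% to 52.0%), against 71.8% (70.6% to 72.9%) of the 5793 rows shared with another RBP. The commonest patterns at the regions after that were FMR1 FLAG alone, at 348 regions, LIN28 V5 alone, at 193, and these tagged libraries together, at 110. These patterns are given for the regions alone, without a share at other rows. At least 1 LIN28 and at least 1 FMR1 library were significant at 246 regions, 12.5% (11.1% to 14.1%). Both LIN28 libraries were significant at 127 regions and both FMR1 libraries at 162. For the 246 and the 127 no share at other rows was computed, so nothing is read from them. Both FMR1 libraries were significant at 215 of the 5793 rows shared with another RBP. In all 4 libraries 22 regions were significant, which is 1.12% (0.741% to 1.69%). Among the 7756 rows in all 4 lists the corresponding share was 0.619%, and among the 5793 of them shared with another RBP it was 0.449% (0.306% to 0.657%). Of the 127 regions significant in both LIN28 libraries, 50 were significant in neither FMR1 library. Of the 162 significant in both FMR1 libraries, 98 were significant in neither LIN28 library. Among the 5793 rows shared with another RBP, 146 were significant in both LIN28 libraries and in neither FMR1 library. The 98 has no such count at other rows, and nothing is read from the 50 or the 98.

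**Figure D2:**
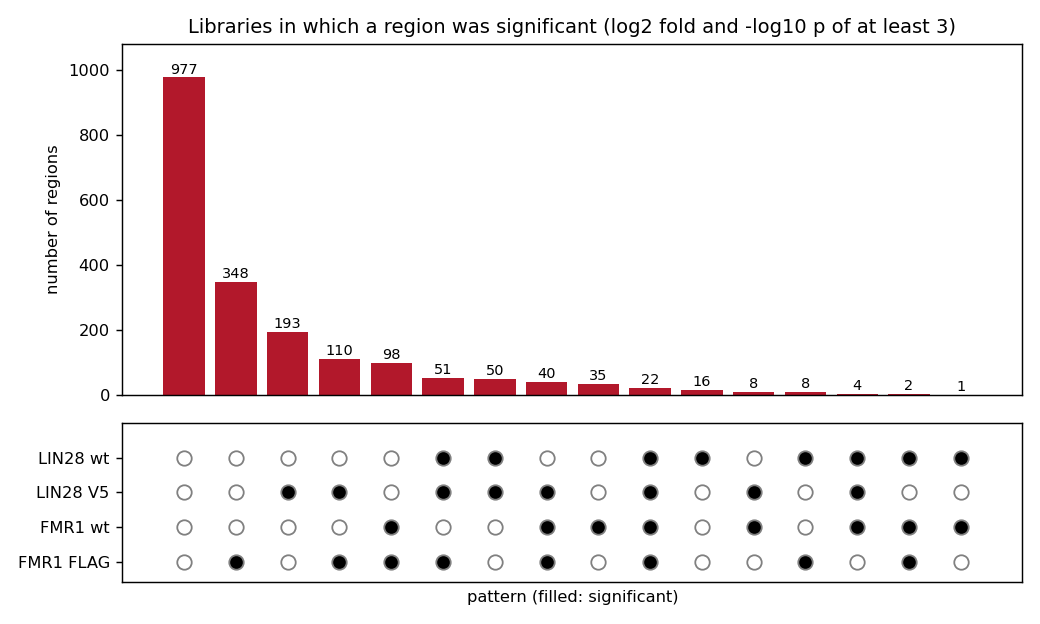
Number of regions (vertical axis, linear) for each combination of libraries in which they were significant. Filled circles below a bar mark the libraries of that combination. The first bar holds the 977 regions significant in no library, and the bar with 4 filled circles the 22 regions significant in all.

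The folds of the 2 proteins were weakly correlated along the regions. Of the regions significant in both FMR1 libraries 13.6% (9.14% to 19.7%) were significant in both LIN28 libraries, against 4.05% (3.08% to 5.29%) of the 1236 regions significant in neither FMR1 library. Among the rows shared with another RBP these shares were close to those of the regions, at 12.1% (8.39% to 17.1%) and 3.01% (2.56% to 3.53%). Across the 1963 regions the folds of the same protein had Spearman correlations of 0.48 between the LIN28 libraries and 0.56 between the FMR1 libraries. Between a LIN28 and an FMR1 library they ran from 0.25 to 0.28. Neighbouring regions are not independent, and the libraries share the cell line and its transcripts, so these correlations are descriptions. Among the 5793 rows shared with another RBP every one of them was higher, at 0.68 between the LIN28 libraries, 0.74 between the FMR1 libraries, and from 0.46 to 0.50 between a LIN28 and an FMR1 library.

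The 22 regions significant in all 4 libraries lay on 14 chromosomes in 20 clusters, with lengths from 17 to 99 nt and a median of 63 nt. Their log2 folds had medians of 3.48 in LIN28 wt, 4.81 in LIN28 V5, 3.60 in FMR1 wt and 4.42 in FMR1 FLAG, with the highest at 5.38, 6.06, 5.23 and 6.75. The 12 clusters with the highest value of the lowest fold among the libraries are numbered here in that order, each by its leading region. Folds were not scaled between libraries, whose list medians ran from 1.51 in LIN28 V5 to 2.09 in FMR1 FLAG. The order of libraries at a region is therefore a description of single libraries and does not rank the proteins or the antibodies.

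Region 1, on chromosome 12 (922817 to 922911, plus strand), had the highest joint enrichment. Its log2 folds were 5.34 in LIN28 wt, 4.79 in LIN28 V5, 4.87 in FMR1 wt and 5.66 in FMR1 FLAG. It was also called in 6 tag-only lists and significant in 3 of them, more than any other of the 12. Region 2, on chromosome 6 (90406169 to 90406254, minus strand), had 3.96 in LIN28 wt, 4.06 in LIN28 V5, 4.75 in FMR1 wt and 5.39 in FMR1 FLAG. Both FMR1 libraries thus stood above both LIN28 libraries there. Region 3, on chromosome 5 (154190836 to 154190899, plus strand), had 3.61 in LIN28 wt, 5.15 in LIN28 V5, 3.81 in FMR1 wt and 6.36 in FMR1 FLAG, so that both tagged libraries stood above both wild-type libraries.

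Region 4, on chromosome 1 (220287671 to 220287760, plus strand), showed the opposite order between antibodies. Its log2 folds were 4.63 in LIN28 wt and 5.23 in FMR1 wt, with 3.57 in LIN28 V5 and 3.63 in FMR1 FLAG. It was called in none of the 14 tag-only lists, as were region 6 and region 10. Region 6, on chromosome 2 (54117293 to 54117346, minus strand), had the highest LIN28 V5 fold of the 22, 6.06, with 3.39 in LIN28 wt, 4.03 in FMR1 wt and 4.97 in FMR1 FLAG. Region 10, on chromosome 14 (102474530 to 102474574, plus strand), had 3.25 in LIN28 wt, 4.95 in LIN28 V5, 3.84 in FMR1 wt and 3.56 in FMR1 FLAG. Of all 22 regions, 7 were in no tag-only list and 17 were at no significant tag-only peak.

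The remaining regions of the 12 differed in which library had the highest fold. Region 7, on chromosome X (153586812 to 153586882, minus strand), had the highest LIN28 wt fold of the 22, 5.38, with 4.56 in LIN28 V5, 3.34 in FMR1 wt and 4.02 in FMR1 FLAG. Region 9, on chromosome 2 (54853139 to 54853201, plus strand), had 4.39 in LIN28 wt, 5.07 in LIN28 V5, 3.30 in FMR1 wt and 3.83 in FMR1 FLAG. In these 2 regions both LIN28 libraries stood above both FMR1 libraries. Region 11, on chromosome 8 (48696312 to 48696370, minus strand), had the highest FMR1 FLAG fold of all 1963 regions, 6.75, with 4.32 in LIN28 wt, 5.21 in LIN28 V5 and 3.24 in FMR1 wt. Region 5 lay on chromosome 1 (211966505 to 211966533, minus strand), region 8 on chromosome 14 (51224587 to 51224651, minus strand), and region 12 on chromosome 11 (32956228 to 32956326, plus strand). Their lowest log2 folds among the 4 libraries were 3.40, 3.30 and 3.23.

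**Figure D3:**
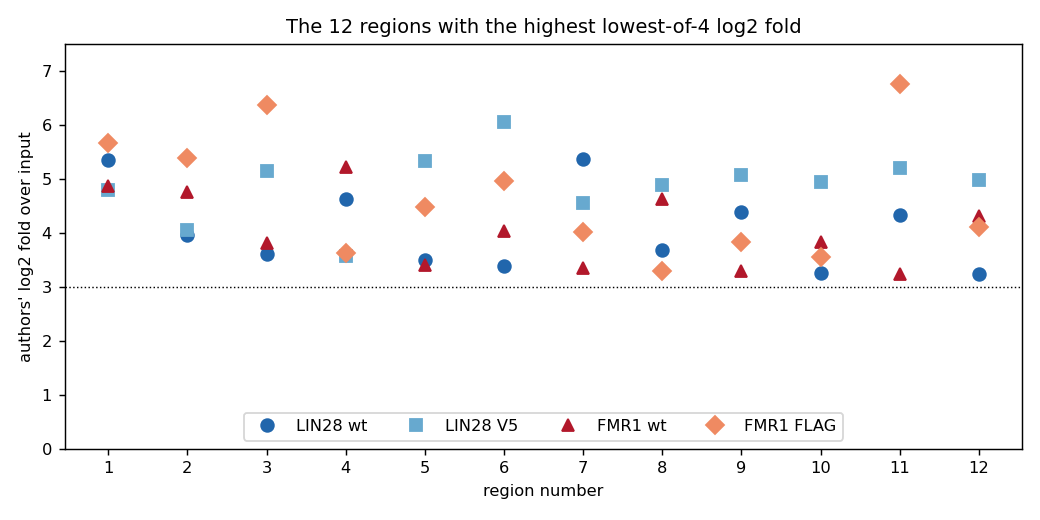
The authors' log2 fold over input (vertical axis) of the 12 regions, numbered in the order of their lowest fold, in the 4 libraries. All points lie above the dotted line at a log2 fold of 3. Region 1 holds the 4 folds closest to a common high level, from 4.79 to 5.66, and region 11 has the widest spread, from 3.24 to 6.75.

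The 8 clusters with the most regions, lettered A to H by that number, showed where LIN28 and FMR1 peaks followed each other along the same strand. Cluster A held 6 regions on the minus strand of chromosome 2, over 1280 nt from 242178065 to 242179344. Its regions had log2 folds from 1.13 to 4.11 in LIN28 wt, from 2.02 to 3.79 in LIN28 V5, from 1.75 to 3.18 in FMR1 wt and from 2.30 to 3.92 in FMR1 FLAG. The LIN28 wt folds were highest and the FMR1 wt folds lowest in the 3 regions towards the 5′ end, whereas FMR1 FLAG folds had no such order. The region at 242178152 to 242178203, towards the 3′ end, had 3.18 in FMR1 wt and 1.13 in LIN28 wt, whereas the region at 242179213 to 242179236, towards the 5′ end, had 1.78 in FMR1 wt and 4.11 in LIN28 wt, and shares its FMR1 peaks with the region next to it. Joined within 10000 nt, the same stretch grew to 11 regions over 8990 nt, from 242170355 to 242179344, the most of any stretch.

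Cluster G was the only one of the 8 with every region significant in both LIN28 libraries and in FMR1 FLAG. It held 4 regions in 288 nt on the plus strand of chromosome 5, from 154190836 to 154191123, and begins with region 3. Its log2 folds ran from 3.61 to 4.61 in LIN28 wt, from 5.15 to 6.40 in LIN28 V5, from 2.76 to 3.81 in FMR1 wt and from 3.51 to 6.36 in FMR1 FLAG. Its 4 regions overlapped 3 distinct FMR1 wt peaks, so not every FMR1 value there is a separate measurement.

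Clusters C and F differed in which library had the highest folds. Cluster C, 4 regions on chromosome 12 (53421581 to 53421972, plus strand), had log2 folds from 4.07 to 5.27 in LIN28 V5 and from 2.10 to 4.59 in LIN28 wt. There FMR1 folds stayed between 0.74 and 2.23 in wt and between 1.61 and 2.22 in FLAG. Cluster F, 4 regions on chromosome 22 (36684398 to 36685154, minus strand), had folds from 2.85 to 4.93 in FMR1 FLAG and from 0.59 to 2.17 in LIN28 wt. Its FMR1 wt folds, from 1.61 to 2.23, were not significant at any region, and its LIN28 V5 folds, from 1.47 to 4.24, were significant at 2. The highest FMR1 FLAG fold of cluster F belongs to 1 peak that overlaps 2 regions, so its 4 regions hold 3 distinct FMR1 FLAG peaks. At its region from 36685131 to 36685154 the LIN28 V5 fold of 4.24 stood above the FMR1 FLAG fold of 2.85. All 4 regions of cluster F were at significant tag-only peaks, against none of cluster G.

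The other lettered clusters had no region significant in more than 2 of the 4 libraries. Cluster B held 5 regions on chromosome 2 (178080594 to 178081606, plus strand), of which 1 was significant in FMR1 FLAG and none in the other libraries. Cluster D held 4 regions on chromosome 16 (31201422 to 31202161, plus strand), with 1 significant in FMR1 wt. Cluster E, with 4 regions on chromosome 17 (42929911 to 42931683, minus strand), had 2 significant in LIN28 V5 and 1 in FMR1 FLAG. Cluster H, with 4 regions on chromosome 9 (86585205 to 86586642, minus strand), had 1 significant in LIN28 wt, 2 in LIN28 V5 and 1 in FMR1 FLAG.

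Within the regions, where the rule required overlap, FMR1 peaks were displaced in neither direction as a group. From the centre of the LIN28 wt row, read 5′ to 3′, the centre of the overlapping FMR1 wt peak lay at a median of 0.5 nt and that of the FMR1 FLAG peak at 1 nt downstream. The second LIN28 library gave −0.5 nt. Regardless of direction the median distance was 9.5 nt to FMR1 wt and 10 nt to FMR1 FLAG, against 8 nt to LIN28 V5. The centres lay within 10 nt of each other at 53.1% of the regions for FMR1 wt, 50.8% for FMR1 FLAG and 58.4% for LIN28 V5. Overlap with each of these lists was a condition of the rule and bounds the distances. No other rows were set beside them, so no closeness of the proteins is read from these values.

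**Figure D4:**
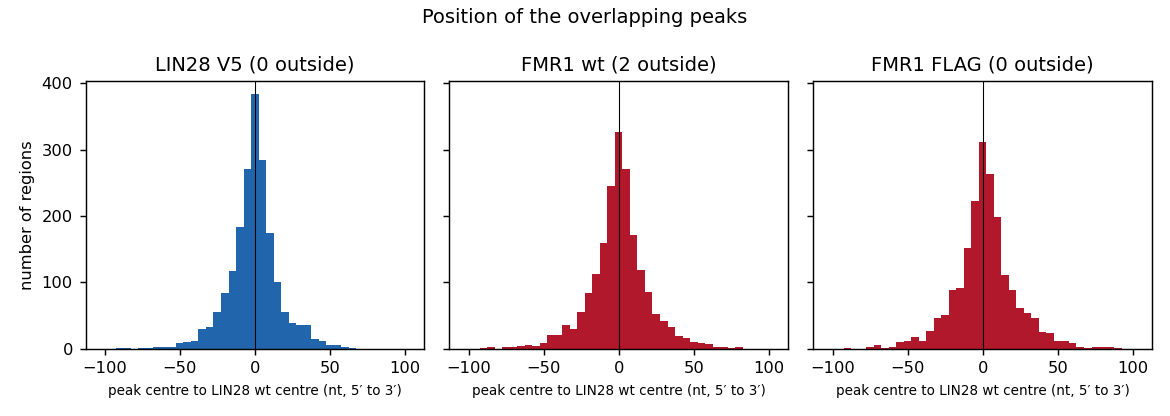
Number of regions (vertical axis) by the distance in nt from the centre of the LIN28 wt row to the centre of the overlapping LIN28 V5, FMR1 wt or FMR1 FLAG peak, positive downstream on the transcript strand, in steps of 5 nt. All 3 distributions centre within 1 nt of 0, and most regions lie within 20 nt.

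The overlaps were mostly far longer than the rule demanded. The median overlap was 27 nt with LIN28 V5, 23 nt with FMR1 wt and 27 nt with FMR1 FLAG, and the row was wholly covered at 40.1%, 24.4% and 38.2% of the regions in that order of libraries. The shortest of the 3 overlaps was 1 nt at 63 regions. Just inside the rule, these 63 had median log2 folds of 1.91 in LIN28 wt, 2.15 in LIN28 V5, 1.55 in FMR1 wt and 2.54 in FMR1 FLAG. The 1900 regions with longer overlaps had 1.59, 2.15, 1.81 and 2.54 in the same order of libraries. Just outside the rule, 59 rows had an FMR1 FLAG peak up to 10 nt away but not overlapping. Their medians were 1.91 in LIN28 wt, 2.72 in LIN28 V5 and 1.55 in FMR1 wt. In LIN28 V5 40.7% of these 59 were significant at the threshold given above, against 28.6% of the 63. In LIN28 wt the shares were 11.9% and 7.94%, and in FMR1 wt 3.39% and 4.76%. A further 178 rows met every condition except that their nearest FMR1 wt peak lay up to 10 nt away. They had medians of 1.91 in LIN28 wt, 2.34 in LIN28 V5 and 2.39 in FMR1 FLAG. Of these 178, 28.1% were significant in LIN28 V5 and 29.2% in FMR1 FLAG, where the 63 had 28.6% and 33.3%. The sets just outside lack a given list, whereas the 63 touch any of them by 1 nt, and these differences were not tested. The 1963 regions held 1931 distinct FMR1 wt peaks and 1934 distinct FMR1 FLAG peaks, so that few FMR1 peaks were counted at more than 1 region.

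The tag-only libraries took no part in choosing the regions. The classes compared here nevertheless differ by rule in how many other lists had called the row. How far the order of the classes in the tag-only lists follows from that was not tested. A called peak of at least 1 of the 14 libraries lay at 87.1% (85.5% to 88.5%) of the regions, against 62.5% of all LIN28 wt rows. The share was 42.0% (40.8% to 43.3%) at the LIN28 rows without FMR1 and 97.3% (96.9% to 97.7%) at the rows shared with another RBP. The regions were called in a median of 5 of the 14 tag-only lists, the rows without FMR1 in 0 and the rows shared with another RBP in 12. In each of the 14 libraries the regions stood between these classes. Median row lengths were 38 nt for the regions, 34 nt for the rows without FMR1 and 45 nt for the rows shared with another RBP. Among rows of 30 to 50 nt the shares were 88.8%, 41.2% and 97.1% in the same order of classes.

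The share of regions at a tag-only peak depended on the gel range. In FLAG-only libraries it was 53.3% at 25 to 100 kDa, 50.4% at 50 to 125, 40.8% at 75 to 150, 43.6% at 100 to 175, 37.1% at 125 to 200, 37.2% at 150 to 225 and 33.9% at 175 to 250 kDa. In V5-only libraries it was 50.4%, 47.5%, 32.8%, 38.6%, 37.9%, 36.1% and 25.6% in the same order of ranges. Both antibodies thus had the highest share in the lowest range and the lowest in the highest range. Among all LIN28 wt rows the shares at these ends were 30.8% at 25 to 100 kDa and 24.3% at 175 to 250 kDa in FLAG-only, and 30.1% and 20.5% in V5-only.

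List length differed along the ranges, from 71364 rows at 25 to 100 kDa to 56404 at 175 to 250 kDa in FLAG-only and from 68700 to 47978 in V5-only. The rows shared with another RBP, read in the same lists, differed less between the ends, and the LIN28 rows without FMR1 differed proportionally more. The share of the rows shared with another RBP was 71.6% in the lowest and 70.5% in the highest FLAG-only range, and 74.3% and 64.6% in V5-only. That of the rows without FMR1 was 14.3% and 7.40% in FLAG-only, and 13.0% and 5.19% in V5-only. The share of the regions was 0.75 times that of the rows shared with another RBP at 25 to 100 kDa and 0.48 times at 175 to 250 kDa in FLAG-only, and 0.68 and 0.40 times in V5-only. Set against the rows without FMR1 the ratio ran the other way, at 3.73 times in the lowest and 4.58 times in the highest FLAG-only range, and 3.88 and 4.93 times in V5-only. The ranges overlap each other and have 1 library per antibody, so this trend has no test, and the part of list length in it was not tested.

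**Figure D5:**
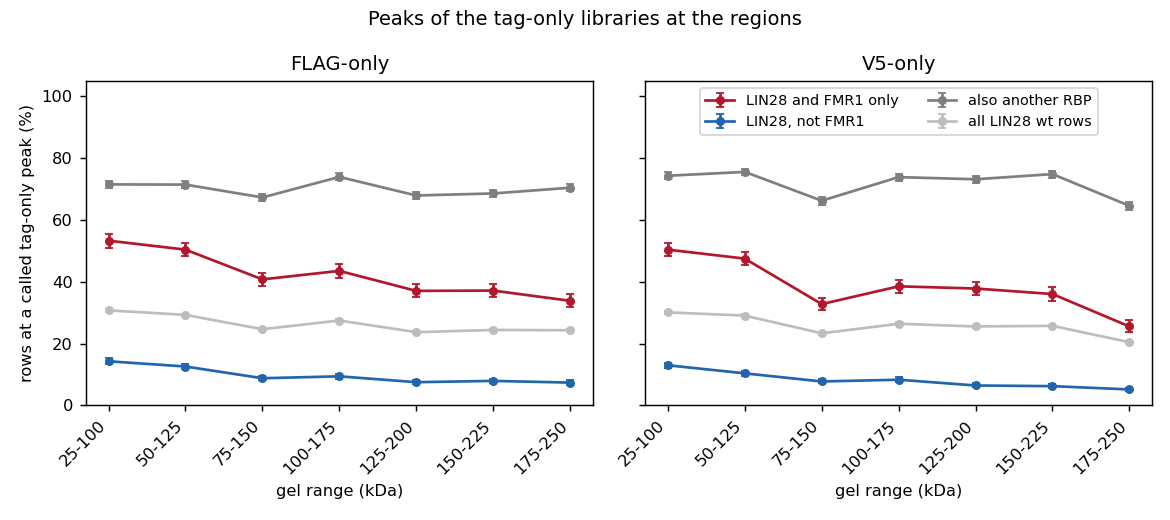
Percent of rows at a called peak (vertical axis) of each FLAG-only and V5-only library, by gel range in kDa. Lines mark the 1963 regions, the LIN28 rows without FMR1, the rows in all 4 lists and another RBP's list, and all LIN28 wt rows, and bars are 95% Wilson intervals. The regions run from 53.3% down to 33.9% in FLAG-only and from 50.4% down to 25.6% in V5-only, below the rows shared with another RBP and above the other lines in every library.

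At the regions significant tag-only peaks were less common than called ones. At least 1 of the 14 libraries had one at 581 regions, 29.6% (27.6% to 31.7%), against 14.6% of all LIN28 wt rows. The share was 4.89% (4.37% to 5.47%) at the rows without FMR1 and 37.4% (36.2% to 38.7%) at the rows shared with another RBP. Among the FLAG-only libraries the lowest share was 1.07%, the median 3.16% and the highest 14.6%, at 125 to 200 kDa, where 7.5% of all LIN28 wt rows had one. Among the V5-only libraries the lowest was 0.458%, the median 1.07% and the highest 9.93%, again at 125 to 200 kDa, where 5.05% of all LIN28 wt rows had one. That range also had the longest lists of significant peaks, 11075 in FLAG-only and 6535 in V5-only. The median log2 fold of the tag-only peaks at the regions ran from 1.55 to 2.94 in FLAG-only and from 1.30 to 2.56 in V5-only. At all LIN28 wt rows it ran from 1.55 to 2.74 and from 1.23 to 2.37. At the regions it exceeded the list's own median in 9 of the 14 libraries. It was below that median in V5-only at 75 to 150 kDa and equal to it in the others. The peak of highest fold was taken at each region, so nothing is read from this difference to the lists.

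Regions without any tag-only peak were the more strongly enriched. There were 254, and their median log2 folds were 2.17 in LIN28 wt, 2.57 in LIN28 V5, 2.23 in FMR1 wt and 2.89 in FMR1 FLAG, against 1.59, 2.10, 1.75 and 2.48 at the 1709 regions with one. Of the 254, 15.4% (11.4% to 20.3%) were significant in LIN28 wt and 21.7% (17.0% to 27.1%) in FMR1 wt, against 6.73% (5.64% to 8.02%) and 9.07% (7.80% to 10.5%) of the others. In the tagged libraries, whose shares were higher in both classes, the contrast was smaller as a ratio but not in percentage points. There 32.7% (27.2% to 38.7%) were significant in LIN28 V5 and 45.7% (39.7% to 51.8%) in FMR1 FLAG, against 23.1% (21.2% to 25.2%) and 32.9% (30.8% to 35.2%). The share of regions without a tag-only peak followed the number of LIN28 and FMR1 libraries in which a region was significant. It was 9.31% of the 977 regions significant in none, 12.8% of 592 in 1, 18.5% of 275 in 2, 29.9% of 97 in 3 and 31.8% (16.4% to 52.7%) of the 22 in all 4. Significant tag-only peaks showed no such order, with 26.8%, 32.6%, 34.2%, 27.8% and 22.7% of the regions in the same classes.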

How the data were processed

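The 25 peak lists, 1 for each immunoprecipitation library, were used as deposited, outside the mitochondrial chromosome; the own files of 18 input samples were not analysed here. Each row gives the authors' −log10 p, of at most 400, and the authors' log2 fold of the immunoprecipitation over its input. The build is hg19, and cutadapt, STAR, GATK, Picard and SAMtools are named, per the submitters' processing notes. The tool that called peaks was not given in the sources used here. Each library had its own list. No read totals were used, so depth is unknown, and a site can be missed in a library of low depth.

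Overlaps were computed in Python 3.11.15 with numpy 2.4.6 and pandas 2.3.3 and checked on simulated rows against a direct search. Folds and p-values of the authors were used only to describe or filter peaks. Named regions were the 12 clusters with the highest lowest-of-4 fold at a region significant in all 4 libraries, the 8 clusters with most regions, and the longest and shortest regions. The largest stretch joined within 10000 nt was named after its values were seen. Members and comparison classes were chosen with earlier results of these data known. Sequence motifs were not analysed, as no hg19 sequence was used here.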

Additional observations from a re-analysis of the deposited data

Results flagged for a closer look

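In the gel range of 125 to 200 kDa the tag-only libraries stood apart from the other ranges at the regions. In FLAG-only, 14.6% of the regions were at a significant peak of that range, where the next range had 6.27%. In V5-only the share was 9.93%, where the next had 2.45%. The median log2 fold of the V5-only peaks at the regions was 2.56 in that range, where the next had 1.83. Of 6 sets of 7 libraries examined, 3 held such a value, where chance gives about 1 in 20, or 0.3 sets. The 3 values come from 1 gel range, whose whole lists also held the most significant peaks, and they are not independent. The gel ranges overlap each other as well, so nothing is read from the comparison with chance.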

How the results depend on the processing

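The number of regions rested on how overlap and absence were defined. It was 540 with overlap covering 50% or more of each of the paired peaks and 7615 where only significant peaks of HNRNPC, RBFOX2 and DGCR8 removed a row. It was 1261 where rows within 100 nt of a peak of these RBPs were removed as well, and 254 where regions at any tag-only peak were left out. Drawn from LIN28 V5 or FMR1 wt rows it was 2204 or 1933. The number significant in all 4 libraries was 12 at a −log10 p of at least 5, 84 at a log2 fold of at least 2, 7 with the 50% overlap and 7 among regions at no tag-only peak. The 50% overlap gave median log2 folds of 1.81 in LIN28 wt, 2.27 in LIN28 V5 and 1.91 in FMR1 wt. Regions at no tag-only peak gave 2.17, 2.57, 2.23 and 2.89 in FMR1 FLAG. Of the regions 29.6% were at a significant and, by the 50% overlap, 67.1% at a called tag-only peak, with 88.8% among rows of 30 to 50 nt and 86.1% without the range of 125 to 200 kDa. Clusters numbered 1888 joined within 100 nt and 1417 within 10000 nt. The absence from tag-only lists, the 100 nt margin and the length class were chosen after seeing the data. The cause of these shifts was not tested. No paired analysis was possible because each group had 1 library. The planned search for sequence motifs was not run, and gene lists were not applied, since no hg19 genome was used here.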
